A study of Mus musculus with 6 samples.

Results

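The NADPH oxidase of phagocytes and enzymes that remove superoxide and peroxide were followed through 9 genes: Cybb, Cyba, Ncf1, Ncf4, Rac1, Rac2, Sod1, Sod2 and Cat. The members were all array probe sets whose annotation named exactly 1 gene symbol, that symbol being one of the 9. These 9 of 18193 genes with such a probe set had 24 of the 45037 non-control probe sets, and none of the 932 probe sets with several symbols included one of these genes. RNA of macrophages grown from bone marrow was measured on Affymetrix mouse expression arrays, 1 sample per array. The 3 vimentin-deficient samples and the 3 samples of wild-type littermates shared the C57BL/6 background, an age of 17 weeks and culture at normal oxygen. All 6 cultures received supernatant of the CMG14-12 line, which supplies macrophage colony-stimulating factor. The labels do not name the vimentin allele, and they call the samples of a genotype biological replicates without saying whether each came from its own animal. P-values therefore measure the spread between these samples.

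The phagocyte oxidase transfers electrons from NADPH across a membrane onto oxygen, which makes superoxide. Cybb and Cyba encode the membrane-bound pair that carries the electrons, while Ncf1 and Ncf4 encode cytosolic subunits that join the pair on activation together with a Rac GTPase. Superoxide dismutases turn superoxide of their own compartments into hydrogen peroxide, Sod1 in the cytosol and Sod2 in mitochondria. Catalase in peroxisomes breaks peroxide down. In macrophages the oxidase serves killing of microbes and also redox signalling and lipoprotein oxidation.

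The 250 bases before the start of Cybb and of Ncf1 are shown because both genes are known to respond to interferon. A further reason was that all 11 tested interferon response genes read higher on every vimentin-deficient than on every wild-type array. Of all 13445 tested genes 5.32% did so, and the 11 were chosen with earlier results of these arrays known. A part of interferon in the Cybb and Ncf1 values was not tested. The sequences are from RefSeq on GRCm38.p6, each given 5′ to 3′ on the gene's own strand, which is the minus strand at chrX:9469325-9469574 for Cybb and at chr5:134229626-134229875 for Ncf1. Capitals mark matches to GAAANNGAAA, the core of interferon-responsive elements, on either strand.
Cybb: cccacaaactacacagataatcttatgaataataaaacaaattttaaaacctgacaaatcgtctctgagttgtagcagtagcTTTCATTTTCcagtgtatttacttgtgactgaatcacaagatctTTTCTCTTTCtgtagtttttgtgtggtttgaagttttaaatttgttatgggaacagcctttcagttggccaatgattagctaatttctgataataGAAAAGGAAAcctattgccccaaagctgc
Ncf1: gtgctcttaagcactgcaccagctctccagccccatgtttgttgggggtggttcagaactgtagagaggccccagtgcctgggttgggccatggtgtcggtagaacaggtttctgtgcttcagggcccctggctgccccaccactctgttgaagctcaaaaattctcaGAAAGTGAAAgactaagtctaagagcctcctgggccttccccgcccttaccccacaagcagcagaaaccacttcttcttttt
Cybb held 3 matches, whose leftmost bases lay 168, 124 and 29 bases before the start, and Ncf1 held 1, at 82 bases. The matches did not overlap each other. Of 32851 RefSeq promoter windows of this length, 2.98% held a match, and of the 6 member genes with an entry, Cyba, Sod1, Sod2 and Cat held none. Rac1, Rac2 and Ncf4 were without an entry. Other short motifs were searched on both strands in the same windows. GAGGAA, a form of the sequence bound by the myeloid factor PU.1, was found in Sod2 and Cat and in 23.3% of all windows. The shorter GGAA within it was not searched, and its share of all windows was not counted. Of the windows printed above, that of Cybb holds it and that of Ncf1 holds its reverse complement. GGGCGG, the box bound by Sp1, was found in Cyba, Ncf1, Sod1, Sod2 and Cat and in 32.7% of windows. GGGANNNNCC, the core bound by NF-kappaB, was found in Cybb, Cyba, Ncf1 and Cat and in 17.6% of windows. TGANNNNGC, the antioxidant element, was found in Sod1 and in 35.2% of windows. Matches are a description of these letters, not of binding.

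The arrays gave log2 values with medians between 7.23 and 7.25, and the number of arrays limits the precision of every comparison. Vim, the targeted gene, averaged 7.43 ± 0.67 (SD, n = 3) at its brightest probe set without vimentin and 13.32 ± 0.09 (SD, n = 3) in the wild type, with no overlap (limma adjusted p = 0.0104). Vimentin-deficient replicate 3 stood apart. Its correlation with the other arrays across probe sets was 0.975 to 0.979, against 0.992 to 0.998 among the other 5. On this array the mean of 9 proliferation genes relative to wild type was -2.25 log2 units, while the other 5 arrays lay between -0.36 and 0.57. Log2 differences without it are plotted for all 22 tested member probe sets and given in the text for the main ones. Macrophage markers were measured for 7 of 8 genes, with Csf1r at 13.05 to 13.63 and Lyz2 at 13.93 to 14.22 on all arrays, and 5 of the 7 had lower means in vimentin-deficient samples. On vimentin-deficient replicate 3 Itgam read 9.60 against 10.30 to 10.62 on the other arrays, and Fcgr1 11.70 against 9.82 to 10.21. The oxidase is also abundant in neutrophils, so their markers were followed, and 10 of 12 were named on the array. Their summed signal lay at 10.49 to 10.62 in vimentin-deficient and 10.59 to 10.63 in wild-type samples on the log2 scale. The brightest of the 10, Elane, averaged 7.93 in vimentin-deficient and 8.01 in wild-type samples, not far above the array medians. Each reading includes background, so the sum over 10 genes is no measure of neutrophil RNA. S100a9, Ltf, Camp and Mmp8 were below the detection filter of 6.93 on average. Their part in the results was not tested. In bulk RNA fewer cells of a type and less RNA per cell cannot be told apart.

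No member passed the test between genotypes. Of the 24 probe sets 22 reached the filter, a mean of at least 6.93 over the 6 arrays (percentile 40 of the means of the non-control probe sets), and 0 of the 22 passed an adjusted p of 0.05 (limma, Benjamini-Hochberg over 27022 probe sets). Over all tested probe sets 0.0185% passed, namely 5 that were lower: 3 of Vim, 1 of Ak8 and 1 of Adam19. At an unadjusted limma p under 0.05, 3 members were higher and 0 lower, against 2.96% and 4.23% of all tested probe sets. The members at that level were both dimmer Ncf1 probe sets and the brighter Rac2 probe set. The median difference was 0.12 log2 units over the 22 members and -0.01 over all tested probe sets. By position of the samples, 5 of the 22 had all 3 vimentin-deficient arrays above all 3 wild-type arrays, where 5.92% of all tested probe sets did, and 0 lay wholly below, where 8.91% did. These 5 were the 3 probe sets of Ncf1, that of Ncf4 and the brighter one of Rac2, so they stand for 3 of 9 genes. At the brightest probe set of each gene, 5.32% of all 13445 tested genes lay wholly above. No test was made of this count.

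**Figure D1:**
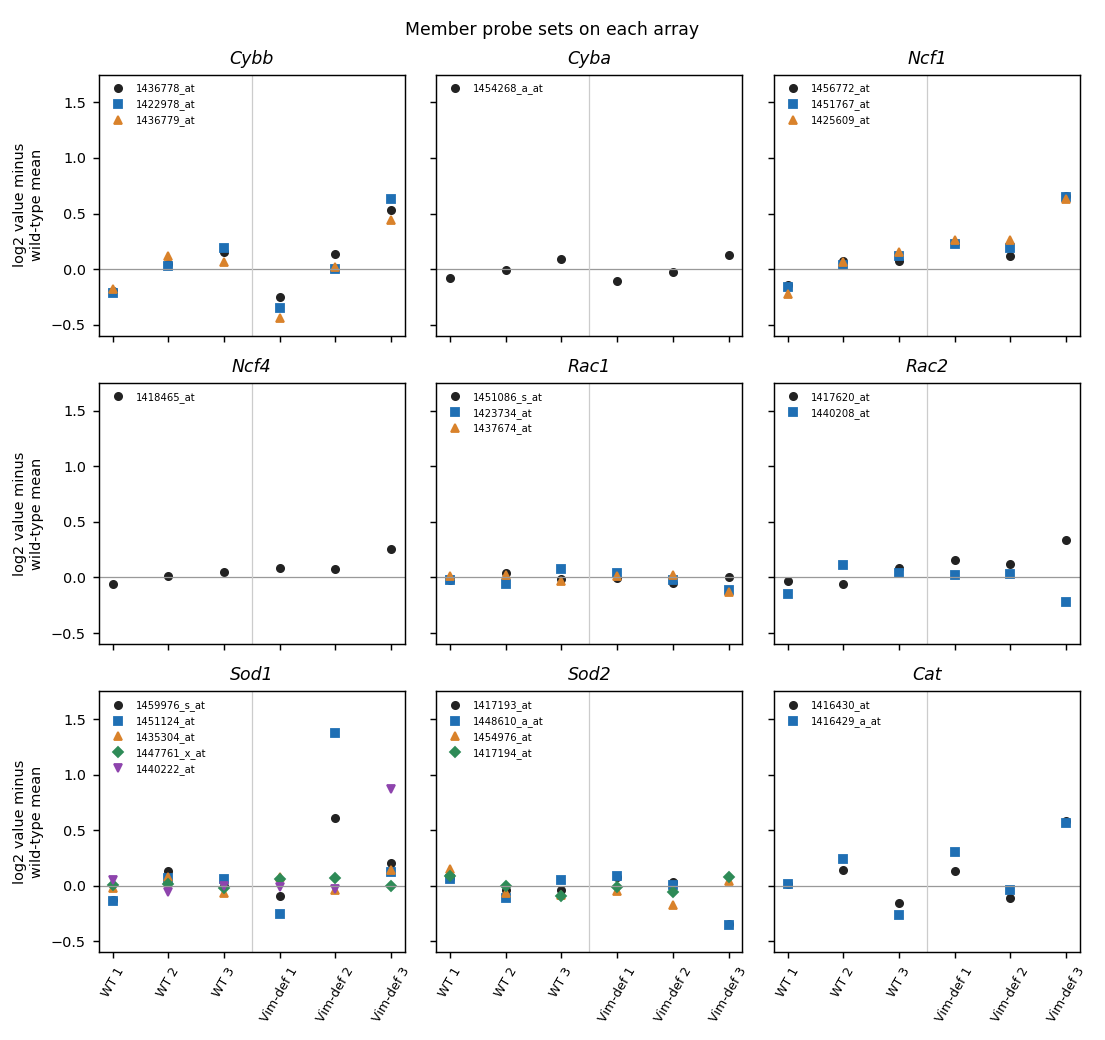
Log2 value of each member probe set minus its wild-type mean (y axis) on the 3 wild-type (WT) and 3 vimentin-deficient (Vim-def) arrays (x axis), 1 panel per gene and 1 symbol per probe set. The 3 Ncf1 probe sets lie above all wild-type arrays on every vimentin-deficient array, Cybb and Cyba overlap between genotypes, and 1 Sod1 probe set reads 11.98 on vimentin-deficient replicate 2 against at most 10.73 elsewhere.

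Ncf1, which encodes the organiser subunit of the cytosolic complex, had the largest difference among the oxidase genes, and its 3 probe sets gave the same picture. Probe set 1425609_at read 10.46, 10.46 and 10.82 on vimentin-deficient replicates 1 to 3 and 9.97, 10.26 and 10.35 on wild-type replicates 1 to 3. The lowest vimentin-deficient array was above the highest wild-type array, with replicate 3 of the vimentin-deficient samples highest and replicate 1 of the wild-type samples lowest. Its log2 fold change was 0.39 (SE 0.14, 95% interval 0.04 to 0.73, 1.31-fold, limma adjusted p = 0.653). Probe set 1451767_at read 11.05, 11.02 and 11.48 against 10.67, 10.87 and 10.94, a log2 difference of 0.35 (SE 0.15, limma adjusted p = 0.688). Probe set 1456772_at read 11.49, 11.37 and 11.90 against 11.11, 11.32 and 11.32, a log2 difference of 0.34 (SE 0.15, limma adjusted p = 0.704). Here the groups were separated by 0.048, since vimentin-deficient replicate 2 lay just above wild-type replicates 2 and 3.

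The size of the Ncf1 difference depended on vimentin-deficient replicate 3. Leaving it out, the 3 probe sets had log2 fold changes of 0.26, 0.21 and 0.18 in the same order, with limma adjusted p of 0.356, 0.411 and 0.469. In that fit 444 of all 27022 probe sets passed, 1.64%, and 0 members did, with 1 of the 22 at an unadjusted limma p under 0.05, where 12.9% of all tested probe sets were. Replicate 3 exceeded the mean of vimentin-deficient replicates 1 and 2 by 0.36 to 0.48 log2 units on the Ncf1 probe sets.

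Ncf4, the cytosolic subunit that binds phosphoinositides, had a smaller difference of the same sign. Its only probe set, 1418465_at, read 10.57, 10.56 and 10.74 on the vimentin-deficient and 10.43, 10.50 and 10.53 on the wild-type arrays. The groups did not overlap, by a gap of 0.03. The log2 fold change was 0.14 (SE 0.08, 95% interval -0.06 to 0.34, limma adjusted p = 0.761), and it was 0.08 in the fit that left out vimentin-deficient replicate 3.

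The membrane pair showed no such separation. Cybb, the catalytic subunit, read 11.74, 12.13 and 12.53 on the vimentin-deficient and 11.80, 12.04 and 12.15 on the wild-type arrays at its brightest probe set, 1436778_at. The lowest and the highest of the 6 arrays were both vimentin-deficient, and in each genotype replicate 1 was the lowest. The log2 fold change was 0.14 (SE 0.20, limma adjusted p = 0.897) with a 95% interval of -0.34 to 0.61, and the other 2 Cybb probe sets had 0.09 and 0.01. Without vimentin-deficient replicate 3 all 3 turned negative, at -0.06, -0.17 and -0.21, with limma adjusted p from 0.593 to 0.922. Cyba, the smaller membrane subunit that stabilises the catalytic one, read 13.01, 13.09 and 13.24 against 13.03, 13.11 and 13.21. The groups overlapped almost completely, and the 95% interval of the difference ran from -0.19 to 0.18 around a log2 difference of -0.004 (limma adjusted p = 0.995). Ncf1 and Cybb were thus placed differently between the groups, but the difference between their fold changes was not tested.

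The Rac GTPases, molecular switches that complete the active oxidase, differed in what their probe sets showed. Rac2, the form restricted to blood cells, read 11.89, 11.86 and 12.07 on the vimentin-deficient and 11.71, 11.68 and 11.82 on the wild-type arrays at probe set 1417620_at. All vimentin-deficient arrays were above all wild-type arrays, with a gap of 0.04. The log2 fold change was 0.20 (SE 0.08, 95% interval 0.005 to 0.401, limma adjusted p = 0.684), and it was 0.14 in the fit that left out vimentin-deficient replicate 3. The second Rac2 probe set, 1440208_at, was dimmer, at 7.27 to 7.60, and had a log2 difference of -0.05 (SE 0.10), so the 2 probe sets disagreed in sign. Rac1, the widely expressed form, read 12.46, 12.40 and 12.46 against 12.43, 12.50 and 12.44 at probe set 1451086_s_at. Its log2 fold change was -0.02 (SE 0.05) with a 95% interval of -0.15 to 0.11. Probe set 1423734_at had -0.03, and the third Rac1 probe set, 1437674_at, lay below the filter at 5.91 to 6.07 and was not tested.

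Ncf4 and Rac2 lie near each other on the same chromosome, with 10 protein-coding genes between them in the RefSeq gene table. Of the 9 tested among those, 1 had a higher mean in vimentin-deficient macrophages and 8 had a lower mean, 3 of them with no overlap between groups (Mpst, Kctd17 and Tmprss6). Over all tested genes 39.6% had a higher mean and 10.1% lay wholly below. These 9 were looked at after the values of Ncf4 and Rac2 were seen.

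**Figure D2:**
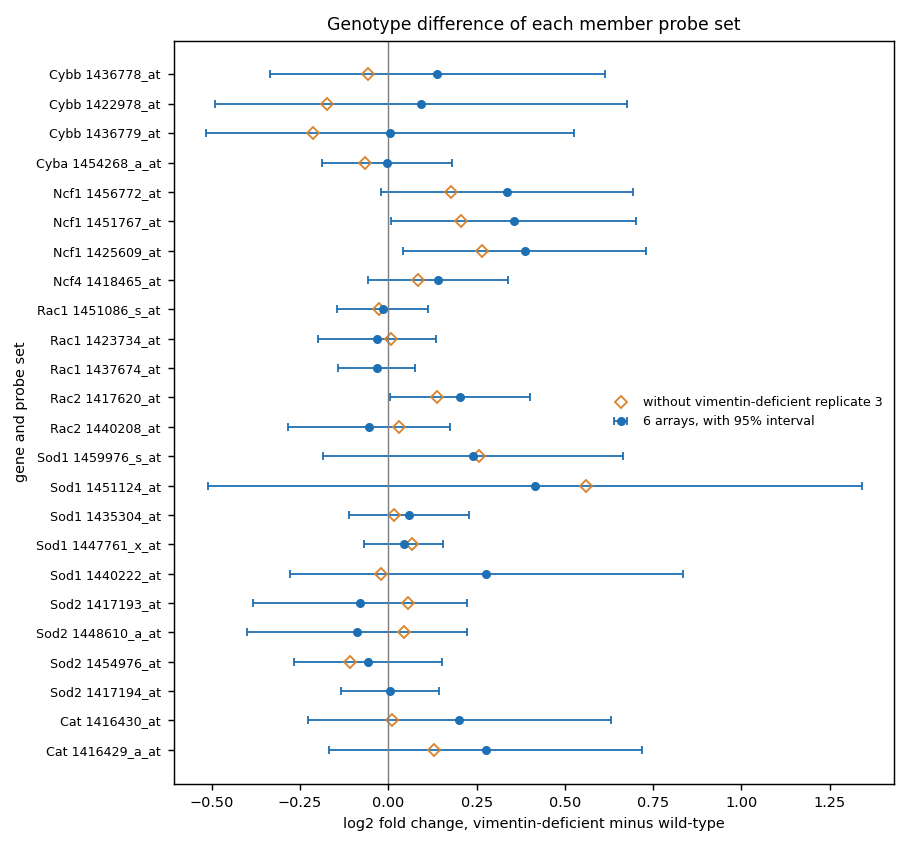
Log2 fold change, vimentin-deficient minus wild-type (x axis), of the 24 member probe sets (y axis), with filled circles and 95% intervals for the fit of 6 arrays and open diamonds for the 22 tested ones in the fit without vimentin-deficient replicate 3. The interval lies above 0 for 2 Ncf1 probe sets and 1 Rac2 probe set before adjustment, and the 3 Cybb probe sets move below 0 without that array.

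Among the enzymes that remove superoxide and peroxide, single arrays stood out. Sod1, the copper and zinc enzyme of the cytosol, read 10.35, 11.98 and 10.73 on the vimentin-deficient and 10.47, 10.68 and 10.67 on the wild-type arrays at probe set 1451124_at. Vimentin-deficient replicate 2 stood 1.25 log2 units above the next array, while the other 5 lay between 10.35 and 10.73. Its log2 difference of 0.41 (SE 0.39, limma adjusted p = 0.837) became -0.07 without vimentin-deficient replicate 2. A second probe set, 1459976_s_at, was also highest on that array, at 11.40 against 10.67 to 11.00 on the others, with a log2 difference of 0.24 (SE 0.18) that was 0.06 without it. The other 3 Sod1 probe sets did not share this pattern to that extent. Probe set 1435304_at read 8.02 on that array and up to 8.21 on the others, and 1447761_x_at read 7.74 there and 7.64 to 7.73 on the others. Probe set 1440222_at was high on vimentin-deficient replicate 3 instead, at 7.77 against 6.84 to 6.95 on the others, and its log2 fold change went from 0.28 to -0.02 without that array.

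High single readings on vimentin-deficient replicate 2 were not particular to Sod1. Of all tested probe sets, 15 read over 1 log2 unit above every other array there, among them probe sets of Rpl27a, Sdc4, Tubb5 and Actb. Of the 14 with a symbol, 12 had other tested probe sets for the same gene, and for 7 of the 12 none of those was highest on this array. For Sod1, 2 of the 4 others were. What sets these readings apart was not tested.

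Sod2, the manganese enzyme of mitochondria, read 10.28, 10.24 and 9.85 on the vimentin-deficient and 10.28, 10.17 and 10.16 on the wild-type arrays at probe set 1417193_at. Vimentin-deficient replicate 3 was the lowest of the 6, and the other 5 lay between 10.16 and 10.28. The log2 fold change was -0.08 (SE 0.13, 95% interval -0.38 to 0.22, limma adjusted p = 0.910) and became 0.05 without that array. Probe set 1448610_a_at repeated this, with 9.46 on that array against 9.70 to 9.90 on the others. The dimmer probe sets 1454976_at and 1417194_at did not read lowest there, and 1417194_at lay below the filter.

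Cat, which encodes catalase, read 11.82, 11.58 and 12.27 on the vimentin-deficient and 11.70, 11.83 and 11.53 on the wild-type arrays at probe set 1416430_at. The groups overlapped, and vimentin-deficient replicate 3 was the highest array. The log2 fold change was 0.20 (SE 0.18, limma adjusted p = 0.824) and 0.01 without that array. Probe set 1416429_a_at gave the same order of the arrays except that vimentin-deficient replicate 1 moved above wild-type replicate 2, with a log2 difference of 0.28 (SE 0.19, limma adjusted p = 0.777) and 0.13 without replicate 3.

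Across the members, vimentin-deficient replicate 3 was the highest of the 6 arrays for 13 of the 22 tested probe sets and the lowest for 4. Over all tested probe sets it was the highest for 25.9% and the lowest for 32.5%. The mean over the 9 genes at their brightest probe sets relative to the wild type was 0.03, 0.10 and 0.26 log2 units for vimentin-deficient replicates 1, 2 and 3, and -0.06, 0.04 and 0.03 on the wild-type arrays. In the interferon response list 11 of 11 tested genes had higher means, of which 0 passed with 6 arrays and 11 without vimentin-deficient replicate 3 (limma). Over all 13445 tested genes 39.6% had higher means, 0.0223% passed with 6 arrays and 2.34% without that array. The interferon list had mean excesses over wild type of 1.12, 1.24 and 2.21 for vimentin-deficient replicates 1 to 3. Its genes were chosen with earlier results of these arrays known. The part of interferon response, of division or of that array's other features in the Ncf1, Ncf4 and Rac2 values was not tested. The 3′ minus 5′ difference of the Tfrc control probe sets, a sign of RNA quality, was 1.36 to 1.44 in vimentin-deficient and 1.49 to 1.56 in wild-type samples, while those of Gapdh and Actb overlapped. Its part was not tested either.

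**Figure D3:**
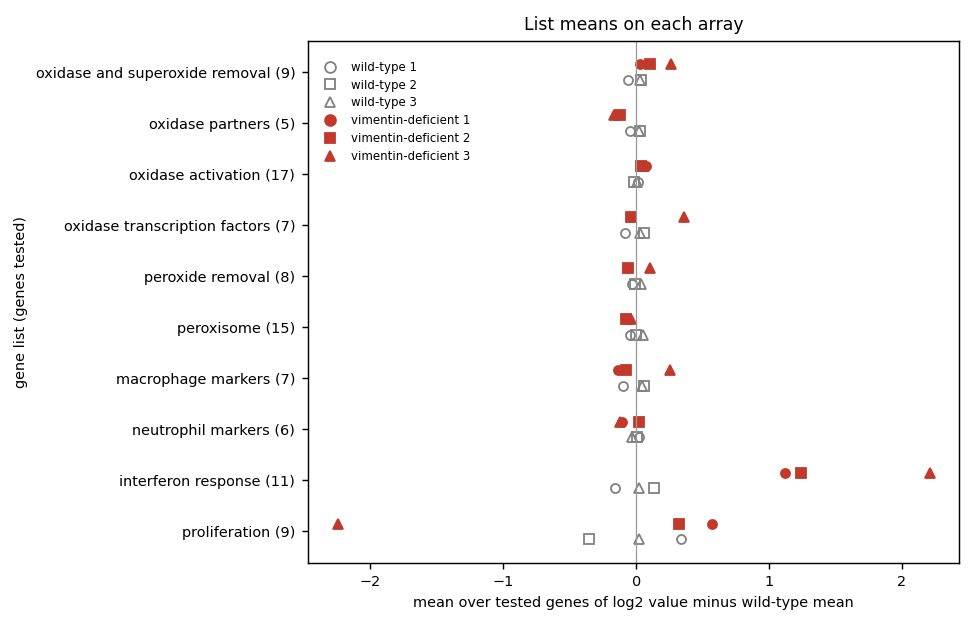
Mean over the tested genes of each list (y axis, number of tested genes in brackets) of the log2 value minus the wild-type mean (x axis), with 1 symbol per array, open grey for wild-type and filled red for vimentin-deficient. The 9 member genes lie between -0.06 and 0.26, while interferon response genes lie at 1.12 to 2.21 on the vimentin-deficient arrays and proliferation genes at -2.25 on vimentin-deficient replicate 3.

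Genes around the oxidase were described from 5 lists, each gene at its brightest probe set with adjustment over 13445 genes. Of 52 tested genes 0 passed with 6 arrays, where 0.0223% of all genes did, and 4 had an unadjusted limma p under 0.05, where 7.97% of all genes did. The median log2 fold change over all tested genes was -0.02.

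Other oxidase subunits and partners had lower means, and none passed. Of 11 listed genes 6 were named on the array, and all 5 tested averaged lower without vimentin, their median difference being -0.17. Of the 5, 3 lay wholly below the wild-type arrays, where 10.1% of all tested genes did. Hvcn1, the proton channel that balances the charge moved by the oxidase, read 10.60, 10.62 and 10.39 against 10.63, 10.76 and 10.78, a log2 difference of -0.19 (SE 0.10, limma adjusted p = 0.67). Leaving out vimentin-deficient replicate 3 gave -0.11 for Hvcn1 and a list median of -0.11. Rac3, the third Rac GTPase, read 8.95, 9.03 and 9.13 against 9.20, 9.26 and 9.22, a log2 difference of -0.18 (SE 0.07, limma adjusted p = 0.61). Noxo1, organiser of a non-phagocyte oxidase, read 6.97 to 7.01 against 7.06 to 7.11, close to the filter. The organiser Ncf1 and these 5 genes had differences of opposite sign, none of which passed. Over all tested genes 39.6% had a higher mean. The list mixes partners of the phagocyte oxidase with genes of other oxidases such as Noxo1, and its contrast with Ncf1 was not tested.

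Of 17 tested genes in the list of oxidase assembly, 8 had higher and 9 lower means, with a median of -0.002, and 11 had higher means with a median of 0.02 without vimentin-deficient replicate 3. The list also holds Mpo, a granule enzyme that uses peroxide and no regulator of assembly, which is among the neutrophil markers too and had -0.03 (SE 0.07). Prkcb, a protein kinase C gene, read 10.50, 10.41 and 11.10 against 10.37, 10.23 and 10.15, a log2 difference of 0.42 (SE 0.18, limma adjusted p = 0.64). All vimentin-deficient arrays were above all wild-type arrays, and the difference was 0.20 without vimentin-deficient replicate 3. Rap1a, a small GTPase found with the membrane pair, had 0.13 (SE 0.08). Pla2g4a, the cytosolic phospholipase A2 that releases arachidonic acid, read 10.13, 9.71 and 8.83 against 9.31, 8.86 and 8.97. It had 0.51 (SE 0.32, limma adjusted p = 0.73) with 6 arrays, where vimentin-deficient replicate 3 was the lowest. Without that array Pla2g4a rose by 0.87 (SE 0.15, limma adjusted p = 0.01), the 1 gene of the 5 lists that passed there, where 2.34% of all genes did.

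Of 7 tested transcription factors known to act on oxidase genes, 5 had higher means, with a median of 0.11. Cebpb read 10.25, 10.01 and 10.57 against 9.86, 9.86 and 9.80, with no overlap and a log2 difference of 0.44 (SE 0.14, limma adjusted p = 0.52). Spi1, which encodes PU.1, had 0.13 (SE 0.09) and Elf1 0.11 (SE 0.11). Without vimentin-deficient replicate 3 Cebpb had 0.29, Spi1 0.06 and Elf1 0.03. In that fit 4 of the 7 had higher means, with a median of 0.01. The largest difference in size there was that of Irf8, at -0.46 (SE 0.13, limma adjusted p = 0.11). Irf8 read 10.43, 10.57 and 11.40 against 10.67, 11.14 and 11.08, a log2 difference of -0.16 (SE 0.26) with all arrays. Irf1 went from 0.09 with all arrays to -0.17 without vimentin-deficient replicate 3. The list mean was -0.04 on vimentin-deficient replicates 1 and 2 and 0.36 on replicate 3.

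Of 8 tested peroxide-removing genes, 3 had higher means, with a median of -0.05. Gpx1, a glutathione peroxidase of cytosol and mitochondria, read 12.28, 12.26 and 12.94 against 12.14, 12.10 and 12.12, with no overlap and a log2 difference of 0.37 (SE 0.18, limma adjusted p = 0.66). Without vimentin-deficient replicate 3 Gpx1 had 0.15. Ccs, the copper chaperone of Sod1, had -0.19 (SE 0.11) and Prdx3, the mitochondrial peroxiredoxin, -0.16 (SE 0.10), and without that array they had -0.10 and -0.09. Of 15 tested peroxisome genes 12 had lower means, with a median of -0.07. Pex19, an import receptor for peroxisomal membrane proteins, read 9.05, 9.02 and 8.92 against 9.19, 9.18 and 9.26, a log2 difference of -0.21 (SE 0.07, limma adjusted p = 0.54). Acaa1a, a peroxisomal thiolase, had 0.17 (SE 0.09), or 0.10 without that array, and Pex3 -0.13 (SE 0.07). Catalase, which these peroxisomes hold, had the higher mean given above.

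The genes whose values followed Cybb most closely over the 6 arrays were Ifitm1 (Pearson r = 0.995), Pou2f2 (0.991), Zfp953 (0.985), Plekha5 (0.982) and Foxo4 (0.979). Over the 5 arrays without vimentin-deficient replicate 3 these values were 0.989, 0.974, 0.987, 0.958 and 0.952. For Sod2 the closest were Dab2 (0.998), Dusp6 (0.997), Bhlhe40 (0.997), Snx12 (0.997) and Mrpl44 (0.996), and 0.967 to 0.992 without that array. Dusp6, a phosphatase gene, read 8.38 on vimentin-deficient replicate 3 against 10.09 to 10.84 on the others. Among the members, Ncf1 and Ncf4 had a correlation of 0.986 over the 6 arrays, Ncf1 and Rac2 0.918, Cybb and Cyba 0.922, and Cybb and Sod2 -0.910. The values in both gene lists are the highest among 13445 genes, the arrays include one that stood apart, and the correlations only describe these arrays.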

How the data were processed

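Log2 probe set values of 6 arrays, as the authors deposited them in the series table, were used unchanged. The summary and normalization behind them are not given in the sources used here. The labels state biotinylated cRNA and give group and replicate number in the titles. The log2 scale was read from their range, 5.43 to 14.50. Background is not separated in such values, which can shrink differences of dim probe sets.

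Of 45101 probe sets 64 were controls. Names came from the platform annotation, in which 34945 non-control probe sets named 1 symbol. Of these, 34741 were matched by Entrez ID to a RefSeq gene table (GRCm38.p6) to update symbols. The same table gave which genes lie between Ncf4 and Rac2. Probe sets with a mean at or above the 40th percentile entered a linear model with moderated variances and an intensity trend (limma 3.58.1, R 4.3.3). It compared the 2 genotypes with no covariate, each probe set as its own row. P-values were adjusted by Benjamini-Hochberg, with a threshold of 0.05. Lists of other genes used the brightest probe set per gene, and differences of members below the filter came from a fit without it. The procedure was tested on simulated data.

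Named genes were all member probe sets, Vim, the 3 tested genes with the smallest p in each of 5 pathway lists, the 2 brightest markers per cell type list, and the 5 genes most correlated with Cybb and with Sod2, skipping uncharacterised clones. Genes between Ncf4 and Rac2, those high on vimentin-deficient replicate 2, Csf1r, Itgam, Fcgr1, Mpo, Irf8, the neutrophil markers below the filter, Ak8 and Adam19 were named after their values were seen, as were the promoter motifs. The same holds for Irf1, Cd3g, Pdgfra, Calcr, Ocstamp, Dcstamp, Prg2, Epx and Ms4a2. The members and lists were chosen with earlier results of these data known. Alternatives covered normalization, filter, several probe sets per gene, variance model, weights by array quality, unmoderated tests per gene, the replicate block and leaving out each array.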

Additional observations from a re-analysis of the deposited data

How the results depend on the processing

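No member passed the threshold under any of the 12 alternative settings or the 6 fits without 1 array. The smallest limma adjusted p of a member probe set over the fits per probe set was 0.356, for Ncf1 without vimentin-deficient replicate 3. The differences of the 3 Ncf1 probe sets, of Ncf4 and of the brighter Rac2 probe set kept their sign in all 16 settings that gave a value per probe set. They ranged from 0.18 to 0.46 for Ncf1, 0.08 to 0.17 for Ncf4 and 0.14 to 0.24 for Rac2. With array quality weights, which gave vimentin-deficient replicate 3 a weight of 0.223, the 3 Cybb probe sets had -0.0674, -0.17 and -0.21, and the 2 brighter Sod2 probe sets 0.0309 and 0.0079, opposite to the 6 arrays. Signs also turned in fits without 1 array. There Cybb ranged from -0.0572 to 0.33, -0.17 to 0.31 and -0.21 to 0.23 on its 3 probe sets, and Cyba from -0.0670 to 0.05. Rac1 ranged from -0.03 to 0.0039 and -0.0694 to 0.0077, and the dimmer Rac2 probe set from -0.13 to 0.0287. Sod1 ranged from -0.0663 to 0.75 on 1451124_at and -0.0207 to 0.43 on 1440222_at. Sod2 ranged from -0.16 to 0.0543, -0.17 to 0.0450 and -0.11 to 0.0185. The causes were not tested beyond the array left out.

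The count of all probe sets past the threshold was 5. It was 3 without the variance trend and 3 and 2 with 1 row per gene (brightest and mean). It was 76 with array quality weights, 0 with the per-gene test, where 1887 had an unadjusted p under 0.05, and between 0 and 444 without 1 array. The largest count was without vimentin-deficient replicate 3. It was 0 without vimentin-deficient replicate 2 and without each wild-type array, where 914 to 2576 had an unadjusted limma p under 0.05. Counts of the pathway genes ranged from 0 to 1 without 1 array. With the replicate block it was 0 over all probe sets, with 1934 at an unadjusted limma p under 0.05, and 0 members. Deviations of same-numbered arrays correlated at 0.43, -0.15 and 0.04. The value of 0.43 for the replicate 1 arrays was the highest of any pair, while vimentin-deficient replicate 2 correlated best with wild-type replicate 1. With 3 arrays per genotype these values cannot decide whether the numbers pair the samples. Background signal limits what dim probe sets can show.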

Other observations

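Marker genes of 8 cell types were followed, and those of 7 reached the filter in part. With 6 arrays 0 of the tested markers passed a limma adjusted p of 0.05. The osteoclast protease gene Ctsk read 9.01 on vimentin-deficient replicate 3 against 7.37 to 7.72 on the other arrays, and Acp5 read 7.94 against 7.54 to 7.77. Of the same list, Dcstamp read 7.07 there against 6.96 to 7.06. Calcr and Ocstamp, below the filter, were lowest there, at 6.26 and 6.33. The eosinophil and alveolar macrophage gene Siglecf read 7.66 on that array against 6.35 to 6.72, below the filter on average. Of its list, also below the filter, Prg2 and Epx were lowest there, at 6.11 and 6.12, and Ms4a2 was highest, at 6.51. Hba-a1 and Klf1, markers of the red cell lineage, which is rich in catalase and Sod1, read 7.57 to 7.70 and 7.39 to 7.63, and Hba-a1 lay lower on all vimentin-deficient arrays. The T cell gene Cd3e lay between 9.08 and 9.27 and the stromal gene Pdgfrb between 8.61 and 8.79, with overlap between groups for both. A further T cell gene, Cd3g, lay between 6.38 and 6.51, below the filter, and the stromal gene Pdgfra between 6.96 and 7.18. Elane and Prtn3, of neutrophils and their precursors, lay between 7.80 and 8.10 and between 7.52 and 7.74. Cpa3 of mast cells, Ncr1 of natural killer cells and Col1a1 of stroma overlapped between groups, while the macrophage gene Cd68 read 13.60 to 13.63 against 13.68 to 13.78. Xcr1 and Flt3, of dendritic cells, lay between 7.63 and 7.68 and between 7.19 and 7.38.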
